A study of Gallus gallus with 65 samples.

Results

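CEBPG, CEBPB and CEBPE, the C/EBP (CCAAT/enhancer binding protein) probes of a transcription factor array, were followed in sensory epithelia of the chick utricle after damage with neomycin. They are the 3 of 1507 gene probes whose name starts with CEBP. Each was printed as 2 spots, so that 6 of 3018 gene spots of an array belong to the family, and all 3 passed the filter that removed the dimmest 15% of the gene probes and left 1281 for testing. The utricle is a balance organ of the inner ear. The groups were epithelia cultured with neomycin, an aminoglycoside antibiotic that kills hair cells, and collected at 0, 24 or 48 hr of recovery, and control epithelia cultured without neomycin for the same times. Per the methods, the organs came from White Leghorn chicks aged 10 to 21 days, were kept for 24 hr with or without 1 mM neomycin before recovery began, and lost their stroma to thermolysin and dissection at collection. RNA of both groups was amplified before labelling. Each of 65 two-colour arrays carried neomycin RNA against time-matched control RNA, and the arrays formed 3 biological replicates at each time point (25 arrays at 0 hr, 21 at 24 hr and 19 at 48 hr). A biological sample pooled 4 epithelia of each group, and no genotype is given. CEBPG was among the genes that the study followed up by quantitative PCR, so it was singled out on these same arrays.

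The C/EBPs are transcription factors with a basic region that contacts DNA and a leucine zipper through which they pair with each other and with other zipper proteins. C/EBPβ (CEBPB) is an activator known from inflammation, the acute phase response and cell differentiation, and C/EBPε (CEBPE) is known from the maturation of granulocytes in mammals. C/EBPγ (CEBPG) has the zipper but lacks the activation domains of its relatives, and it is known as a partner that forms heterodimers with them and with ATF4. The CEBP names among chicken genes in RefSeq (assembly GRCg7b) were CEBPA, CEBPB, CEBPD, CEBPG and CEBPZ, with no CEBPE. CEBPB and CEBPG were matched to them by symbol, and no gene probe of the array was named CEBPA, CEBPD or CEBPZ. CEBPE is named from the array alone, and what its probe measures in chick was not tested. The probes were designed on human genes, and how far each binds transcripts of its relatives was not tested.

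Each array has a title digit. The image names in the file headers put neomycin RNA in Cy5 on 31 arrays, titled with digit 5, and in Cy3 on 34 arrays, titled with digit 3, and all ratios are given as the log2 of neomycin over control in the direction named by these headers. Arrays of the same replicate correlated with a median r of 0.225 across probes within an orientation (96 pairs) and of -0.0745 between opposite orientations (127 pairs, of which 13 were below -0.3). Such correlations bear on whether both orientations are turned alike, which they did not settle. They cannot show the direction as a whole, since they stay the same with all signs turned. Both rest on the headers, and the deposited value table is turned by title digit in the same way. With all signs turned every ratio below changes its sign. With only 1 orientation turned, the mean of both would take the size of the dye part given further below. In 3 arrays the pattern of brightness across probes correlated under 0.5 with the other arrays. The values of 1 replicate are means over its arrays with equal weight for both orientations, and the number of replicates, 3 at each time point, limits their precision.

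No change of a CEBP probe passed the test at any time point. At an adjusted p under 0.05 (limma, Benjamini-Hochberg over the 1281 probes), 0 of the 3 members were called at 0, 24 and 48 hr, and so were 0 of 1281 probes at each time (0%). At an unadjusted p under 0.05 there were 78 probes at 0 hr (6.09%), 72 at 24 hr (5.62%) and 97 at 48 hr (7.57%), with 0 of the 3 members among them at any time. The one-sample test that the methods name, run on the replicates and adjusted in the same way, also called 0 probes at each time. The study ran that test over its selected hybridisations, with an unadjusted p under 0.05 and a 1.2-fold limit. That rule was not counted over all probes here. Over all hybridisations, the one-sample test gave CEBPG an unadjusted p of 0.114, 0.693 and 0.117 at 0, 24 and 48 hr. The lowest one-sample p of CEBPB and CEBPE was 0.143, so no member was under 0.05 at a time point. With the hybridisations of all time points pooled, the one-sample p of CEBPG was 0.0497 (adjusted p = 0.384). That test takes arrays of the same biological replicate as independent. On the biological replicates of all time points, the one-sample p of CEBPG was 0.161 (adjusted p = 0.567). In the limma fit for the mean over the 3 time points, 4 probes were called (0.312%), and again 0 of the 3 members. That count was 25 without 0 hr replicate 2 and 0 without any one of the other 8 replicates. In epithelia, fewer cells of a type and less RNA per cell cannot be told apart in such ratios.

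CEBPG, the dimerization partner, had the lowest mean ratio of the family at each time point, in the mean over both dye orientations. At 0 hr its log2 ratios were -0.68, -0.32 and 0.02 in the 3 replicates, with a mean of -0.33 ± 0.35 (SD, n = 3), or 0.796-fold, and the limma adjusted p was 0.924. Replicates 1 and 2 lay below 0 and replicate 3 at 0, and replicate 1 did so almost only with neomycin in Cy5 (-1.35, against -0.02 in Cy3). The 95% interval of the mean ran from -0.92 to 0.26, so that it held both a fall past 1.2-fold and no change. At 24 hr the log2 ratios were 0.11, 0.38 and -1.15, with a mean of -0.22 ± 0.82 (SD, n = 3; limma adjusted p = 0.932). Replicates 1 and 2 were above 0 and replicate 3 was far below. Without 24 hr replicate 3 the mean at 24 hr was 0.25, the opposite sign. At 48 hr the log2 ratios were 0.47, -0.71 and -0.74, with a mean of -0.33 ± 0.69 (SD, n = 3; limma adjusted p = 0.827). Here replicates 2 and 3 lay together and replicate 1 stood on the other side of 0, and without replicate 1 the mean was -0.73. Replicate 1 was above 0 only with 1 array at 2.41, whose image name carries a remark of poor quality. Its other 2 arrays with neomycin in Cy3 gave -0.99 and -1.04. Without the remarked array the mean at 48 hr was -0.52. In replicate 3 a CEBPG dye was under 2 times its local background on 4 of 6 arrays. At no time point did the 3 replicates lie on the same side of 0, which they did for 27.1% of the tested probes at 0 hr, 29.3% at 24 hr and 28.9% at 48 hr.

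Over all 9 replicates the CEBPG log2 ratio was -0.29 with a standard error of 0.16 (limma p = 0.0851, adjusted p = 0.464), and 4 of 9 replicates were above 0. Its mean was past 1.2-fold on the lower side at 0 hr, at 48 hr and over the course, as were 1.09%, 1.33% and 0.39% of the tested probes. A fold limit takes no account of spread, and 99.8% of the tested probes had a smaller SD between replicates than CEBPG. Ranked by limma p among the tested probes, CEBPG was number 337 at 0 hr, 381 at 48 hr and 231 over the course. The ratio did not change between time points beyond its error. The differences were 0.11 for 24 minus 0 hr, -0.11 for 48 minus 24 hr and 0.00 for 48 minus 0 hr, each with a standard error of 0.38 (limma adjusted p = 0.998, 0.999 and 0.998). Some pairs of time points were quantified from the images on the same day, and there the differences were larger. On both days that held 48 and 24 hr arrays, all of replicate 2, CEBPG was at -0.60 at 48 hr against 0.38 at 24 hr, and at -0.83 at 48 hr against 0.39 at 24 hr. On the day that held 24 and 0 hr arrays, all of replicate 3, it was at -1.15 at 24 hr against -0.19 at 0 hr. Both differences of 48 against 24 hr come from the same pair of replicates, and the last comes from another pair. The last also has the opposite sign to the pooled difference.

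**Figure D1:**
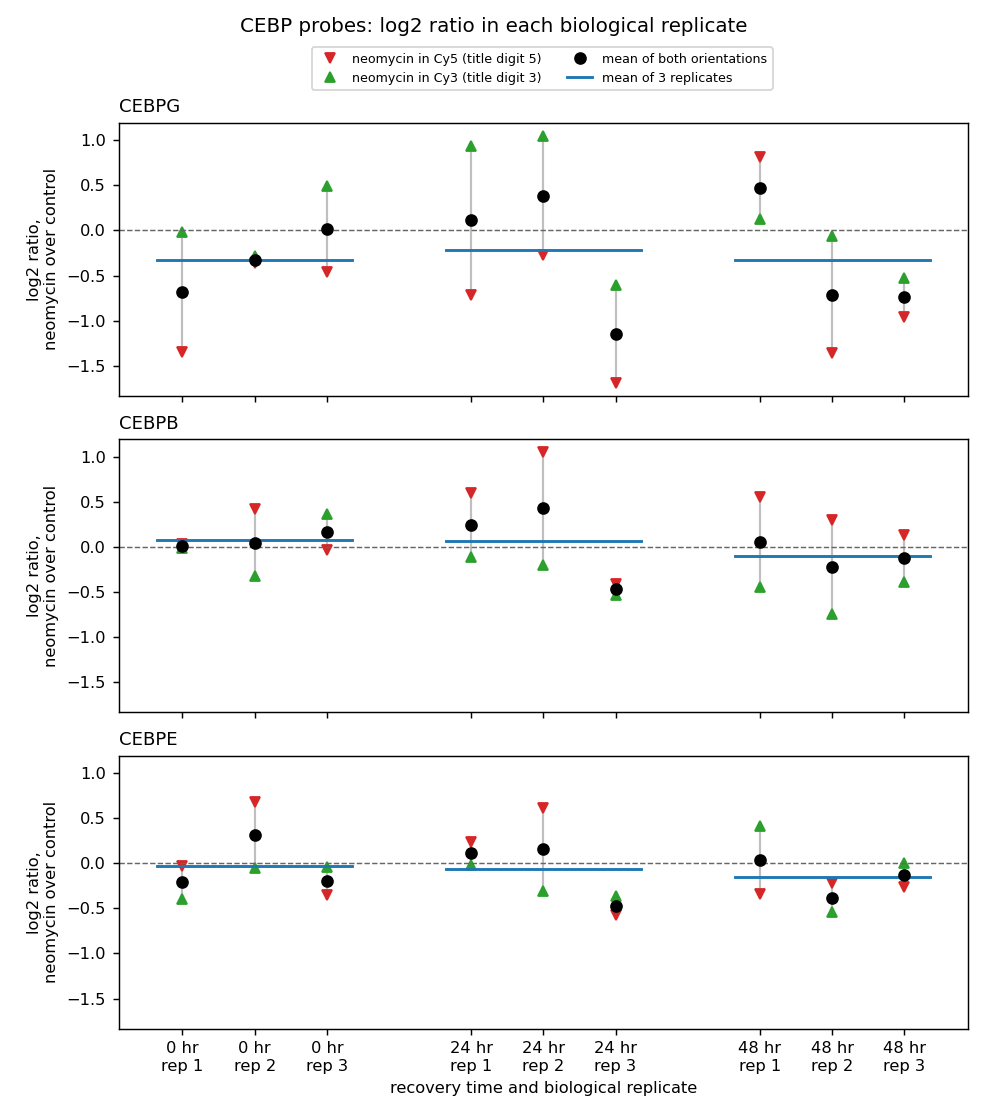
Log2 ratio of neomycin over control (y axis) for the 3 CEBP probes in each biological replicate (x axis, by recovery time). Red triangles are the mean of the arrays with neomycin in Cy5, green triangles of those with neomycin in Cy3, black points their mean, and blue lines the mean of 3 replicates. CEBPG spreads from -1.15 to 0.47, more widely than CEBPB and CEBPE, and its red points lie below the green ones in 8 of 9 replicates.

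The CEBPG ratios of the dye orientations stood apart, although their gap missed the adjusted threshold. With neomycin in Cy5 the means at 0, 24 and 48 hr were -0.72, -0.90 and -0.50. With neomycin in Cy3 they were 0.06, 0.46 and -0.16. The ratio was above 0 on 6 of 31 arrays with neomycin in Cy5 (median -0.74) and on 20 of 34 arrays with neomycin in Cy3 (median 0.19). In single replicates the Cy5 means were -1.35, -0.36 and -0.46 at 0 hr, against -0.02, -0.28 and 0.49 for the Cy3 means. They were -0.72, -0.27 and -1.69 at 24 hr, against 0.94, 1.04 and -0.60, and 0.82, -1.36 and -0.96 at 48 hr, against 0.12, -0.07 and -0.53. Both orientations lay below 0 in 5 of 9 replicates (0 hr replicates 1 and 2, 24 hr replicate 3 and 48 hr replicates 2 and 3). Both lay above 0 in 1 (48 hr replicate 1), and in 3 they lay on opposite sides. In 48 hr replicate 1 the Cy3 mean was above 0 only with the array remarked as of poor quality, at 2.41. The dye part of a ratio, which is the difference between both orientations divided by 2, is 0 for a probe that reads the same whichever dye carries the sample. For CEBPG it was -0.41 with a standard error of 0.096 and negative in 8 of 9 replicates (limma p = 0.000936, adjusted p = 0.083). A negative value means that the probe read higher in the sample that carried Cy3. It was the 8th lowest dye part of 1281, where 9 probes passed an adjusted p of 0.05 (0.703%) and CEBPG did not. The median size of the dye part was 0.062 over all probes tested and 0.12 over those with a brightness of at least 1000. Averaging both orientations with equal weight removes a constant dye part from the ratios given above.

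Single arrays show how far the CEBPG spots varied. At 0 hr with neomycin in Cy5, the foreground intensity ranged from 932 to 12072 with a median of 4663 for neomycin, and from 2943 to 37518 with a median of 12050 for control. With neomycin in Cy3 at 0 hr, it ranged from 2675 to 41476 with a median of 7555 for neomycin, and from 822 to 28011 with a median of 5735 for control. As scanned, before any normalization, neomycin was the brighter sample on 2 of 12 arrays in the first orientation and on 9 of 13 in the second. The same counts were 3 of 10 and 8 of 11 at 24 hr, and 3 of 9 and 5 of 10 at 48 hr. The sample in Cy3 was thus the brighter one on most arrays of 5 of these 6 sets, and the sixth was even. At 0 hr this was not particular to CEBPG, since unnormalized neomycin was the brighter sample for CEBPB on 2 of 12 and 10 of 13 arrays and for CEBPE on 2 of 12 and 11 of 13, in the same order. At 24 hr the counts were the other way round for CEBPB, with 6 of 10 and 3 of 11 arrays.

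At 24 hr, CEBPG stood near its background on 2 arrays of replicate 1 with neomycin in Cy3. On one the neomycin spots read 181 and 187 and the control spots 141 and 134, and on the other the neomycin spots read 364 and 324 and the control spots 191 and 176. Their log2 ratios were 0.32 and 0.14. The relatives were not near background on these arrays. The brightness of CEBPG was 128 and 227, that of CEBPB 555 and 14511 and that of CEBPE 3697 and 13316. The other 2 arrays of that replicate and orientation had ratios of 1.45 and 1.84, with far brighter neomycin spots. On another array, of 48 hr replicate 3, CEBPG read 591 and 601 for neomycin against 564 and 564 for control and was also under 2 times its background in both dyes. In that replicate at least 1 CEBPG dye was under 2 times its background on 4 of 6 arrays. Without the 3 arrays under it in both dyes the mean was -0.10 at 24 hr and -0.40 at 48 hr, and no call changed.

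At 24 hr replicate 3, 5 of 6 arrays had a ratio below 0. With neomycin in Cy3, 2 arrays gave -1.50 and -1.71 and the third 1.39, and with neomycin in Cy5 the arrays gave -0.98, -1.64 and -2.47. The third array of each orientation had the brighter CEBPG spots in Cy3. They read 7052 and 6813 for neomycin against 2920 and 3358 for control in the first case. In the second they read 754 and 720 for neomycin against 5906 and 5704 for control. The first array with neomycin in Cy5 was brighter in Cy3 too, with 16827 and 19337 for neomycin against 29485 and 30988 for control. That replicate was wide in both directions over all tested probes, with the lowest of the 9 ratios for 16.2% and the highest for 16.8%, and 0 hr replicate 2 held the lowest for 18.8%. Of the 153 probes with a brightness of at least 1000, 24 hr replicate 3 held the lowest ratio for 24.2%.

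The highest CEBPG ratio of all arrays, 2.41, came from 48 hr replicate 1. There the neomycin spots read 15008 and 15275 and the control spots 1917 and 2523, and the control channel stood at 1.34 times its background. The image name of that array carries a remark of poor quality, and the other 2 arrays of the same replicate and orientation gave -0.99 and -1.04. Without that array the mean at 48 hr was -0.52 (limma unadjusted p = 0.0469, adjusted p = 0.596). Duplicate spots of CEBPG were over 2-fold apart on 6 of 65 arrays, against 0 for CEBPB and 3 for CEBPE, and 1 CEBPG spot, with 65386 for control at 24 hr replicate 1, lay near the top of the scan range.

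**Figure D2:**
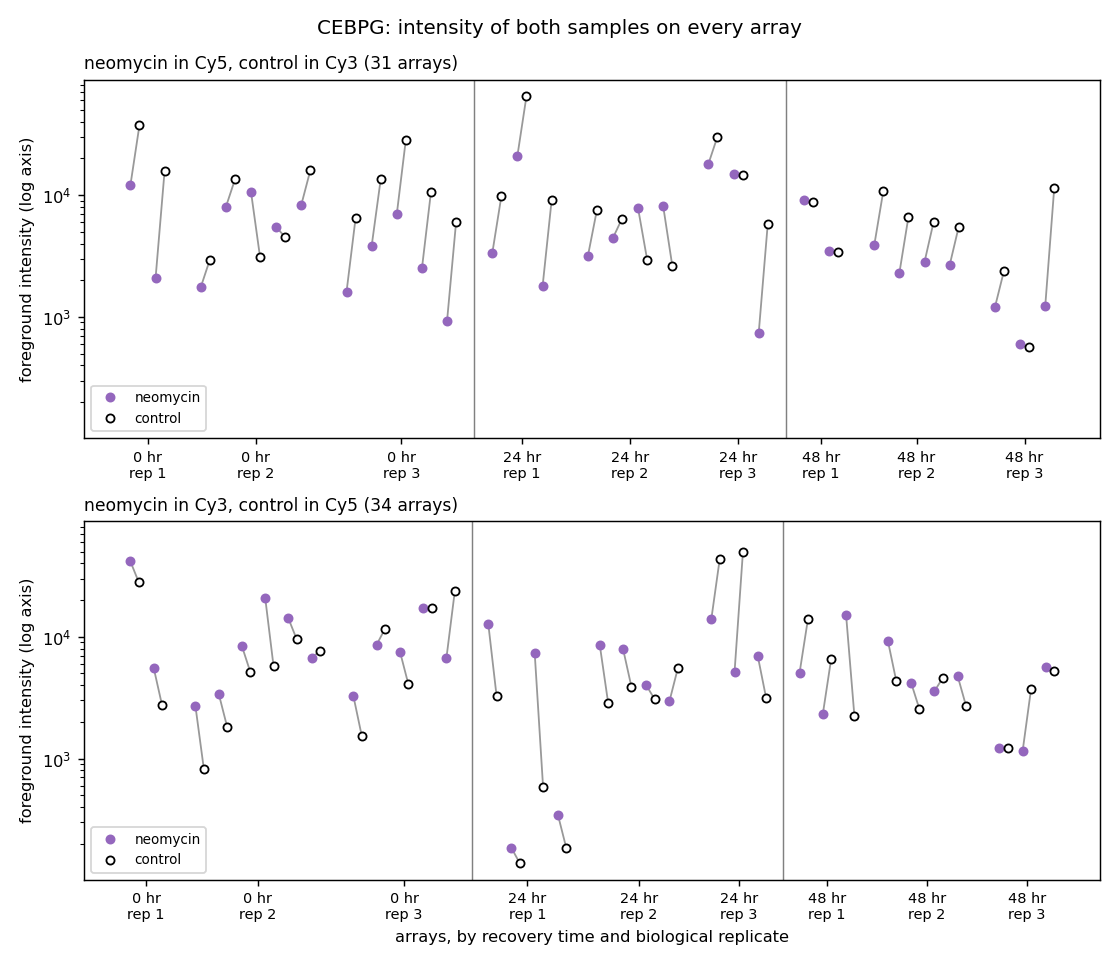
Foreground intensity of CEBPG (y axis, log scale, mean of the duplicate spots) for neomycin (filled) and control (open) on every array, ordered by recovery time and biological replicate, with neomycin in Cy5 above and in Cy3 below. Each line joins the samples of 1 array. In the upper panel control is mostly higher and in the lower panel neomycin is mostly higher, and 2 arrays of 24 hr replicate 1 lie near background.

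CEBPB, the activator, stayed closer to 0. Its log2 ratios at 0 hr were 0.01, 0.04 and 0.17, with a mean of 0.07 ± 0.08 (SD, n = 3; limma adjusted p = 0.993). All 3 replicates were at or just above 0, as 14.7% of the tested probes were above 0 in all 3. With median centring of the arrays in place of loess the mean was -0.03. At 24 hr the log2 ratios were 0.24, 0.43 and -0.47, with a mean of 0.06 ± 0.47 (SD, n = 3; limma adjusted p = 0.955). Replicates 1 and 2 were above 0 and replicate 3 below, as for CEBPG. At 48 hr the log2 ratios were 0.05, -0.23 and -0.13, with a mean of -0.10 ± 0.14 (SD, n = 3; limma adjusted p = 0.931). Over all 9 replicates the mean was 0.01 with a standard error of 0.077 (limma adjusted p = 0.949), and its 95% interval from -0.16 to 0.18 lay within 1.2-fold on either side. Differences between time points were -0.01 for 24 minus 0 hr, -0.17 for 48 minus 24 hr and -0.18 for 48 minus 0 hr, each within its standard error of 0.19 (limma adjusted p of 0.998 or above).

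The dye orientations of CEBPB stood apart the other way, again short of the adjusted threshold. With neomycin in Cy5 the means were 0.14, 0.41 and 0.32 at 0, 24 and 48 hr. With neomycin in Cy3 they were 0.01, -0.28 and -0.53. The ratio was above 0 on 21 of 31 arrays in the first orientation and on 10 of 34 in the second. The dye part was 0.28 with a standard error of 0.075, positive in 8 of 9 replicates (limma p = 0.00297, adjusted p = 0.153), and 1271st of 1281 from low to high. At 48 hr with neomycin in Cy5, intensities ran from 618 to 6749 with a median of 2583 for neomycin, and from 445 to 13007 with a median of 2666 for control.

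CEBPE, known from granulocytes, had log2 ratios of -0.21, 0.31 and -0.20 at 0 hr, with a mean of -0.03 ± 0.30 (SD, n = 3; limma adjusted p = 0.993). The replicates fell on both sides of 0. At 24 hr they were 0.11, 0.15 and -0.47, with a mean of -0.07 ± 0.35 (SD, n = 3; limma adjusted p = 0.955), and replicate 3 was once more the low one. At 48 hr they were 0.04, -0.38 and -0.13, with a mean of -0.16 ± 0.21 (SD, n = 3; limma adjusted p = 0.843). CEBPE was at or near background in 48 hr replicate 3, where a dye lay under its local background on 4 of 6 arrays and under 2 times its background on all 6, and the mean of both dyes was below 0 after subtraction on 3. In 24 hr replicate 3 a CEBPE dye was under 2 times its background on 4 of 6 arrays, and in 0 hr replicate 3 on 5 of 10. Without 48 hr replicate 3 the mean at 48 hr was -0.17. Over all 9 replicates the mean was -0.09 with a standard error of 0.077 (limma adjusted p = 0.687) and 4 of 9 replicates were above 0. The differences between time points were -0.04, -0.09 and -0.12 (24 minus 0, 48 minus 24 and 48 minus 0 hr), with limma adjusted p of 0.998 or above. With neomycin in Cy5 the means were 0.10, 0.09 and -0.27 at 0, 24 and 48 hr, and with neomycin in Cy3 they were -0.16, -0.23 and -0.04. Its dye part was 0.06 (limma adjusted p = 0.817) and negative in 4 of 9 replicates. Its widest single ratios were 2.25 on an array of 0 hr replicate 2 and -1.58 on an array of 24 hr replicate 1.

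Within days, the differences of the relatives had the same sign as those of CEBPG. CEBPB was at -0.23 at 48 hr against 0.48 at 24 hr on one day of replicate 2, at -0.22 against 0.38 on the other, and at -0.47 at 24 hr against 0.27 at 0 hr on the day of replicate 3. CEBPE was at -0.32 at 48 hr against 0.21 at 24 hr, at -0.45 against 0.09, and at -0.47 at 24 hr against -0.19 at 0 hr on the same days.

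CEBPG was then set against each relative within replicates. In the mean over both orientations CEBPG was 0.30 ± 0.37 below CEBPB on the log2 scale (SD, n = 9), and lower in 8 of 9 replicates. In an exact two-sided sign-flip permutation test p was 0.043, and 0.086 after adjustment over the 2 pairs compared, so the difference missed the threshold. The differences were -0.70, -0.37 and -0.15 at 0 hr, and -0.13, -0.04 and -0.68 at 24 hr. At 48 hr they were 0.42, -0.49 and -0.62, with replicate 1 on the other side of 0. With 3 replicates a time point cannot go below an exact p of 0.25, and 0 and 24 hr reached it. The difference turned with the dye. It was -0.998 with neomycin in Cy5 (exact permutation p = 0.00781, adjusted p = 0.0156; lower in 8 of 9 replicates) and 0.39 with neomycin in Cy3 (exact permutation p = 0.0781, adjusted p = 0.156; lower in 3 of 9). The first of these passed the threshold and the mean over both did not, and the gap between the orientations was not itself tested. A difference within 1 orientation also holds the dye parts of both probes, -0.41 for CEBPG and 0.28 for CEBPB. The -0.998 is therefore not a comparison of their neomycin ratios alone. Replicate 1 of 48 hr was the only one with a difference above 0, and the array remarked as of poor quality is 1 of its 5 arrays. On that array CEBPG was at 2.41 and CEBPB at -1.45, and without it the difference of that replicate falls below 0 too. The permutation test was not run without that array. Without that replicate the difference over both orientations was -0.40 (exact permutation p = 0.00781, adjusted p = 0.0156). The 8 differences left all lie below 0, so this p is the lowest that 8 replicates can give. It was set by which replicate was left out and adds no support for a difference. Without any other replicate the difference ran from -0.34 to -0.26 and stayed short of the threshold.

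Against CEBPE, CEBPG was lower by 0.21 ± 0.43 (SD, n = 9), in 5 of 9 replicates (exact two-sided sign-flip permutation p = 0.188, also after adjustment). The differences were -0.47, -0.64 and 0.22 at 0 hr, and 0.00, 0.23 and -0.68 at 24 hr. At 48 hr they were 0.43, -0.33 and -0.62. They were -0.68 with neomycin in Cy5 (exact permutation p = 0.0508) and 0.27 with neomycin in Cy3 (exact permutation p = 0.246). The -0.62 at 48 hr came from replicate 3, where CEBPE was at or near background. CEBPG was weak there too, with a dye under 2 times its background on 4 of 6 arrays. Without that replicate the mean difference was -0.15 (exact permutation p = 0.328). No single replicate left out brought CEBPG minus CEBPE to the threshold (range -0.29 to -0.15).

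**Figure D3:**
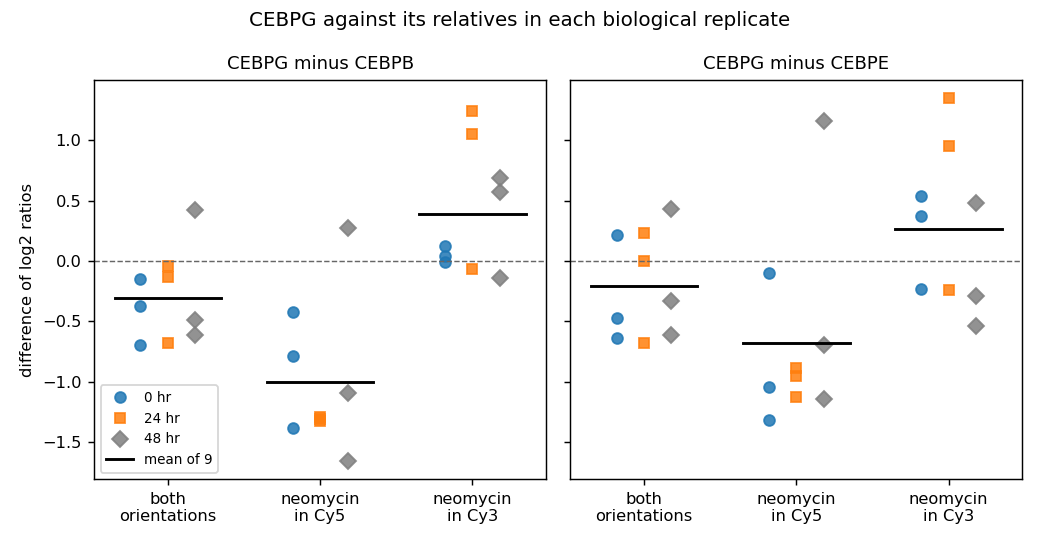
Difference of log2 ratios, CEBPG minus CEBPB (left) and CEBPG minus CEBPE (right), in each of 9 biological replicates (y axis), for the mean of both dye orientations, for neomycin in Cy5 and for neomycin in Cy3 (x axis). Marker shape and colour give the recovery time and the black line the mean of 9. The mean against CEBPB is -0.30 over both orientations, -0.998 in Cy5 and 0.39 in Cy3.

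In the mean over both orientations the replicate ratios of the family varied together, and within an orientation they did so less. Over the 9 replicates the ratios of CEBPG and CEBPB had a Pearson r of 0.856 and a Spearman rho of 0.883. CEBPG and CEBPE had r = 0.691 and rho = 0.667, and CEBPB and CEBPE r = 0.743 and rho = 0.733. These are descriptions, since all probes were measured on the same arrays with the same RNA and the same normalization. Without the 2 replicates whose CEBPG ratio lay farthest from the median (24 hr replicate 3 and 48 hr replicate 1), r was 0.948 for CEBPG and CEBPB and 0.569 for CEBPG and CEBPE. Of the 1280 other probes tested, CEBPB was the most like CEBPG and CEBPE was 35th, and the median r of all probes with CEBPG was 0.0159. Next to CEBPB came GATA4, a zinc finger factor of heart and endoderm (r = 0.833), DRPLA, which encodes atrophin (r = 0.821), SRY, the sex-determining factor of mammals (r = 0.817), and CNOT3, a subunit of the deadenylase complex (r = 0.8). DRPLA and CNOT3 were dim, with a brightness of 352 and 393. What the SRY probe measures in chick was not tested. Over 65 single arrays, where both dye orientations are mixed, r was -0.284 for CEBPG and CEBPB, -0.000203 for CEBPG and CEBPE and 0.44 for CEBPB and CEBPE. Over the 9 replicate means with neomycin in Cy5, r was 0.614 for CEBPG and CEBPB, 0.257 for CEBPG and CEBPE and 0.733 for CEBPB and CEBPE. With neomycin in Cy3 it was 0.5, 0.0977 and 0.185 for the same pairs.

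The 3 probes were bright on the median array, but not on every array. A dye lay under 2 times its local background on 8 of 65 arrays for CEBPG, 3 for CEBPB and 19 for CEBPE, and under the background itself on 1, 1 and 7. Brightness, the geometric mean of both dyes after background correction, is a property of a probe and its target together and is not compared between genes as a transcript level. For CEBPG the median brightness over arrays was 4484, which 98.3% of the gene probes did not reach, and the foreground was 13.2 times the local background in Cy5 and 18.7 times in Cy3. For CEBPB it was 2178 (94.96% of probes dimmer, 6.18 times in Cy5 and 4.76 times in Cy3), and for CEBPE 1346 (92.4% dimmer, 5.11 times in Cy5 and 5.05 times in Cy3). The median tested probe had a brightness of 401. By time point the CEBPG medians were 5453 at 0 hr (583 to 33966), 4761 at 24 hr (128 to 36955) and 3662 at 48 hr (457 to 8668). Those of CEBPB were 2355, 1658 and 2447, and those of CEBPE 872, 1346 and 1675. The ranges of the time points overlapped for each probe.

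CEBPG was bright and had one of the widest spreads. The SD of its log2 ratio was 1.01 between arrays of the same replicate and 0.651 between replicates of the same time point, and 99.6% and 99.8% of the tested probes had a smaller one. The values were 0.656 and 0.289 for CEBPB, 0.6 and 0.291 for CEBPE, and 0.433 and 0.155 for the median probe. The duplicate spots on an array gave close ratios, with r = 0.965 for CEBPG, 0.954 for CEBPB and 0.770 for CEBPE over 65 arrays.

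**Figure D4:**
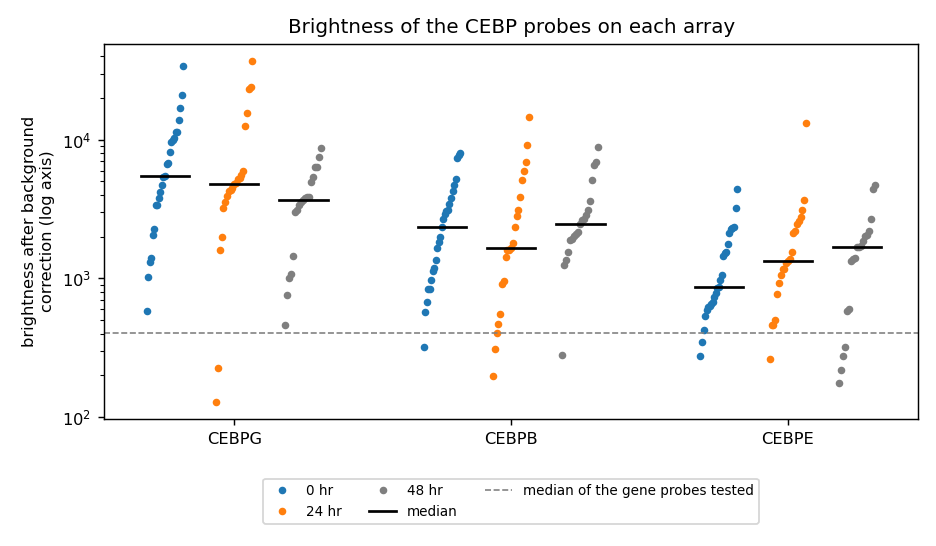
Brightness of each CEBP probe on every array (y axis, log scale, geometric mean of both dyes after background correction), by recovery time, with the median as a black line. The dashed line is the median of the tested gene probes, 401. CEBPG has medians from 3662 to 5453, and 2 arrays at 24 hr lie below the dashed line.

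A probe was scored as detected at a time point where each replicate had 50% or more of its arrays with a background-subtracted mean of both dyes above 1000. CEBPG was above 1000 on 60 of 65 arrays and scored as detected at all 3 time points. CEBPB was above it on 53 arrays and was detected at 0 and 48 hr, but not at 24 hr, where 14 of 21 arrays passed and the lowest replicate had 28.6%. CEBPE was above it on 41 arrays and was detected at no time point, since the lowest replicate had 30% of its arrays above 1000 at 0 hr, 33.3% at 24 hr and 0% at 48 hr. With a threshold of 800 it was detected at 24 hr, where the lowest replicate had 50%. This rule took in 8.76% of all gene probes for 0 hr, 2.79% for 24 hr and 4.11% for 48 hr.

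No zipper protein of the list that pairs with C/EBPs or resembles them passed the test. Of 18 listed, 17 were found on the array by name (JUND was not). Of these, 16 were tested, and 0 were called at any time point or in the mean. Their median log2 ratios were -0.07 at 0 hr, -0.02 at 24 hr and -0.05 at 48 hr, beside -0.01, 0.00 and 0.01 for all probes. ATF4, the stress response factor that pairs with C/EBPγ, had log2 ratios of -0.07, 0.06 and -0.09 at 0, 24 and 48 hr (limma adjusted p = 0.986, 0.932 and 0.869) at a brightness of 376. DDIT3, the C/EBP homologous protein CHOP, was at -0.28 at 24 hr (limma p = 0.0172, adjusted p = 0.845). It was the 1 of 16 that was past 1.2-fold with an unadjusted p under 0.05 at 24 hr, where 2.58% of all probes were. ATF2, a factor of the cAMP response element family, was at -0.25 at 48 hr (limma p = 0.00401, adjusted p = 0.594). At that time 7.57% of all probes had an unadjusted p under 0.05. ATF2 and DDIT3 were dim, with a brightness of 319 and 378, and above 1000 on 5 and 6 of 65 arrays. JUNB, a partner of FOS proteins in AP-1, was bright (20318) and had log2 ratios of 0.08, -0.09 and -0.21 at 0, 24 and 48 hr (limma adjusted p = 0.969, 0.904 and 0.625).

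Among co-regulators and factors known to act with C/EBPs, 20 of 20 were on the array, 16 were tested and 0 were called. Their median log2 ratios were -0.05, -0.01 and 0.00 at 0, 24 and 48 hr. At 48 hr, SMARCA4, the ATPase of a chromatin remodelling complex, was at 0.71 (limma p = 0.017, adjusted p = 0.594) and KLF5, a zinc finger factor of epithelia, at -0.30 (limma p = 0.0406, adjusted p = 0.625), and 2.97% of all probes were past 1.2-fold with an unadjusted p under 0.05 at that time. The signal of SMARCA4 was low, with a brightness of 336, and above 1000 on 12 of 65 arrays.

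Markers of the cells in such a sample were mostly dim. Of 5 hair cell markers, 4 were found on the array by name and stood above 1000 on 5 to 8 of 65 arrays each. Their median log2 ratio in the mean over the time points was 0.000064, beside -0.01 for all probes. POU4F3, the hair cell survival factor, was the lowest of the 4 at -0.12 (limma adjusted p = 0.465), and ATOH1, GFI1 and BARHL1, which act in hair cell differentiation, were at -0.02, 0.02 and 0.02. SOX2, a factor of supporting cells, was above 1000 on 39 arrays, and SPI1, a factor of blood cells, on 22. Of 17 markers tested in the 4 marker lists, 1 passed in the mean of all times, where 0.312% of all probes did, and 0 at a single time point. This was TBX15 of the stroma list at 0.31 (limma adjusted p = 0.046), and without any one replicate other than 0 hr replicate 2 no probe was called. The other tested stroma markers, TBX18 and PMX1, were at -0.04 and -0.01. The part that shifts in cell types have in the CEBP ratios was not tested.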

How the data were processed

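The members, the gene lists and the tests were chosen with earlier results of these data known. The authors deposited a table for every array and dye, in which ImaGene 4.1 wrote, per the file headers, the mean foreground and background intensity of the spots without normalization. The value table of the series, deposited as well, gives log2 ratios of the foreground, turned to neomycin over control by title digit and not centred (array medians from -2.03 to 1.81). It was used as an alternative only.

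Intensities were corrected by normexp (offset 50) and loess-normalized array by array, where non-gene spots had weight 0 (limma 3.58.1, R 4.3.3). Marked spots (8 on 2 arrays) were left out. Duplicate spots were averaged, then arrays within a title digit, then both digits. The dimmest 15% of gene probes (226) were removed. The 9 replicate values were fitted with 1 coefficient per time point (lmFit, eBayes), and p-values were adjusted by Benjamini-Hochberg over 1281 probes. The code was tested on simulated data. Replicates were named by the labels, each a pool of epithelia. Whether the pools came from separate birds is not stated, so p-values concern the spread between these samples only. In limma the spread of a probe is drawn toward that of the other probes tested (eBayes). The limma standard errors, intervals and p-values of a member thus rest partly on other probes. Images were quantified on 15 days, of which 3 held more than 1 time point. Named in the text were all probes starting with CEBP, listed partners, co-regulators and markers, and the 5 probes most correlated with CEBPG. Of the lists, single genes were picked out after their values were seen. Alternatives covered background correction, normalization, filters, dye orientation, direction, the unit of replication, blocks, other tests and left-out arrays or replicates.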

Additional observations from a re-analysis of the deposited data

How the results depend on the processing

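No CEBP member passed an adjusted p of 0.05 in any of the 32 alternatives, at any time point, in the mean or between time points. The test was limma, or a t-test in the alternatives that used the methods' test. Over all probes, at most 5 of 1281 passed at a single time point in these settings (48 hr, all arrays taken as independent). Between time points 0 of 1281 passed in the main fit, and the alternatives were not counted over all probes. With so few calls, the absence of the 3 members is not particular to them. The lowest adjusted p of CEBPG was 0.402 at a time point and 0.156 in the mean. The number of replicates, 3 at a time point, with an SD of 0.651 between them for CEBPG, limits what these arrays can show. The direction of the values did depend on the processing, and the causes were not tested.

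Turning all signs gives, by construction, 0.33, 0.22 and 0.33 at 0, 24 and 48 hr and 0.29 in the mean for CEBPG, -0.074, -0.065, 0.10 and -0.012 for CEBPB, and 0.032, 0.069, 0.16 and 0.086 for CEBPE. With digit 5 only, CEBPB was at 0.32 at 48 hr, CEBPE at 0.097 at 0 hr and 0.091 at 24 hr. CEBPG minus CEBPB, which then holds the dye parts of both probes, passed its threshold at -0.998. With digit 3 only, CEBPG was at 0.064 at 0 hr, 0.46 at 24 hr and 0.12 in the mean, CEBPB at -0.28 at 24 hr and -0.27 in the mean, and CEBPG minus CEBPB and minus CEBPE were 0.39 and 0.27.

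The small CEBPB values changed sign in several settings. With median centring they were -0.033 at 0 hr, -0.092 at 24 hr and -0.094 in the mean, and with the deposited value table -0.066, -0.12 and -0.15. Loess within subgrids gave -0.042 at 0 hr, plain background subtraction -0.017 in the mean and a plain mean over arrays -0.0082 in the mean. CEBPE was at 0.011 at 24 hr without background correction. At 0 hr it was at 0.0099 with all arrays taken as independent, also in the methods' t-test over the hybridisations, and at 0.012 with the replicate as a random block. Alternatives chosen after seeing the data were the filter on foreground brightness, the median over arrays within a digit (CEBPB 0.027 at 48 hr), leaving out the array remarked as poor, leaving out the 3 arrays with CEBPG under 2 times its background in both dyes (CEBPB -0.030 at 24 hr and -0.019 in the mean), and leaving out single replicates for CEBPG minus a relative.

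Leaving out 1 replicate gave CEBPG values from -0.50 to -0.15 at 0 hr, -0.52 to 0.25 at 24 hr, -0.73 to -0.12 at 48 hr and -0.43 to -0.14 in the mean. For CEBPB they ran from 0.028 to 0.11, -0.12 to 0.33, -0.18 to -0.039 and -0.048 to 0.10, and for CEBPE from -0.20 to 0.057, -0.18 to 0.13, -0.26 to -0.044 and -0.14 to -0.020. CEBPG minus CEBPB ran from -0.40 to -0.26, and CEBPG minus CEBPE from -0.29 to -0.15. The -0.40, without 48 hr replicate 1, was the one that passed the threshold, and that replicate held the only difference above 0.

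Whether the replicate numbers pair the samples could not be told from the ratios. Of 9 pairs with the same number, 1 correlated over 0.1. Arrays of the same replicate also correlated weakly (median r of 0.225 within and -0.0745 between orientations), so a low r does not decide it. With the replicate number as a block CEBPG was at -0.33 at 0 hr and -0.29 in the mean (limma adjusted p = 0.916 and 0.461), and 0 members were called. Over all probes, the count called in the mean was 4, against 16 with this block, 44 with arrays as independent, 50 and 51 with the replicate and the quantification day as random blocks, 42 in the t-test over the hybridisations and 25 without 0 hr replicate 2. It was 0 without any one of the other 8 replicates and in 7 of 23 other settings, among them median centring and either no or plain background correction.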
